A study of Mus musculus with 9 samples.

Results

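The genes described here are those of solute carrier transporters, the membrane proteins that move ions, metals, nutrients and metabolites across cell and organelle membranes. Members were taken from the deposited expression table as every gene symbol that starts with Slc, leaving out the mitochondrial carriers of the Slc25 family and leaving out Slc12a2, which gave 233 of 15158 genes. They belong to 47 families. Of the 233, 7 carry an Slc symbol but are not carriers themselves (scaffold proteins, opposite-strand and adaptor genes and pseudogenes), and the rest were placed in 20 groups by the substrate their family is known for. The RNA came from the luminal epithelium that lines the uterine cavity, cut out by laser capture on day 4 of pregnancy from females raised to 8 weeks of age. Females of the ePRBoe genotype (Wnt7acre/+PgrBLsL/+) carried an allele for epithelial overexpression of progesterone receptor isoform B, and ePRAoe females (Wnt7acre/+PgrALsL/+) one for isoform A. Wnt7acre females carried the Cre transgene alone and were the controls, so all 3 genotypes carry Wnt7acre, which drives Cre in the epithelium. Each genotype had 3 libraries, numbered as bioreplicates and tied to no named animal, so spread between these 9 libraries, which may be technical, is all that the p-values measure. The design compares the epithelium under an excess of either receptor isoform with that of the controls.

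Solute carriers set what an epithelial layer takes up from its lumen, what it passes on and what it secretes. Importers of the Slc39 family bring zinc into the cytosol and exporters of the Slc30 family remove it, the Slc2 and Slc16 families carry sugars and monocarboxylates such as lactate, and sodium-coupled carriers of the Slc5 and Slc34 families use the sodium gradient to concentrate iodide, sugars, inositol or phosphate. In the uterus before implantation, the epithelium controls the fluid around the embryo, and progesterone is known to change its ion and nutrient transport.

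The libraries summed to 272213 to 314010 FPKM (fragments scaled by gene length and library size, so that levels can be compared between genes), and the members took 1.03% to 1.29% of that sum in each. Pgr, the overexpressed gene, stood at 38.1, 38.3 and 45.9 FPKM in ePRBoe, at 41.7, 49.5 and 42.8 FPKM in ePRAoe and at 17.4, 3.82 and 6.62 FPKM in Wnt7acre. Among the controls, Wnt7acre replicate 1 thus had the highest Pgr. Markers of luminal epithelium were present in every library and summed to 2099 to 2301 FPKM in ePRBoe, 1807 to 2657 in ePRAoe and 2241 to 2495 in Wnt7acre. The 18 stroma markers, all of them in the table, summed to 526.8 to 669.6 FPKM in ePRBoe, 294.2 to 489.0 in ePRAoe and 129.2 to 177.5 in Wnt7acre. At an adjusted p under 0.05 against the controls, 15 of 18 were called higher in ePRBoe, and in ePRAoe 12 were called higher and 1 lower. Over all genes tested, 6.41% were called higher in ePRBoe, and 7.2% higher and 8.98% lower in ePRAoe. The 15 immune cell markers summed to 412.8 to 498.9 FPKM in ePRBoe, 135.5 to 181.6 in ePRAoe and 203.4 to 422.5 in Wnt7acre. Sums for 9 endothelium markers were 48.7 to 70.6 FPKM in ePRBoe, 15.3 to 32.7 in ePRAoe and 12.9 to 20.3 in Wnt7acre, those for 6 smooth muscle markers 38.0 to 119 in ePRBoe, 16.6 to 30.2 in ePRAoe and 11.7 to 21.5 in Wnt7acre, and those for 8 gland markers 12.9 to 74.2 in ePRBoe, 4.42 to 15.7 in ePRAoe and 19.4 to 47.8 in Wnt7acre. No gene of these lists was at 0 in all 9 libraries. These differences run with the genotypes, and their part in the results on carriers was not tested. In such tissue samples, fewer cells of a type and less RNA per cell cannot be told apart.

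A few carriers made up much of the signal. The 12 members with the highest mean held 44.9% of the members' summed FPKM, and 77 members averaged at least 10 FPKM over the 9 libraries, while 57 averaged under 1 FPKM. Slc39a4, the zinc importer known for intestinal zinc uptake, had the highest mean, with 294, 269 and 266 FPKM in ePRBoe, 303, 121 and 158 in ePRAoe and 432, 451 and 424 in Wnt7acre. All 6 overexpressing libraries stood below the 3 control libraries. Next came Slc1a1, a transporter of glutamate and aspartate, at 217 to 258 FPKM in ePRBoe, 252 to 269 in ePRAoe and 235 to 384 in Wnt7acre, and Slc6a6, the taurine transporter, at 145 to 234 FPKM in ePRBoe, 127 to 255 in ePRAoe and 163 to 230 in Wnt7acre. Neither passed the test in any comparison, and their libraries overlapped between genotypes. Slc31a2, related to the copper importer, behaved likewise at 97.05 to 126 FPKM in ePRBoe, 85.1 to 140 in ePRAoe and 69.4 to 116 in Wnt7acre. The glucose transporter Slc2a12 also overlapped between all 3 genotypes, at 39.5 to 88.5 FPKM in ePRBoe, 47.2 to 55.8 in ePRAoe and 42.7 to 79.7 in Wnt7acre. Among the 12, changes against the controls were called for Slc39a4, Slc2a3, Slc23a1, Slc38a2, Slc2a1 and Slc5a5, each described with its substrate group.

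**Figure D1:**
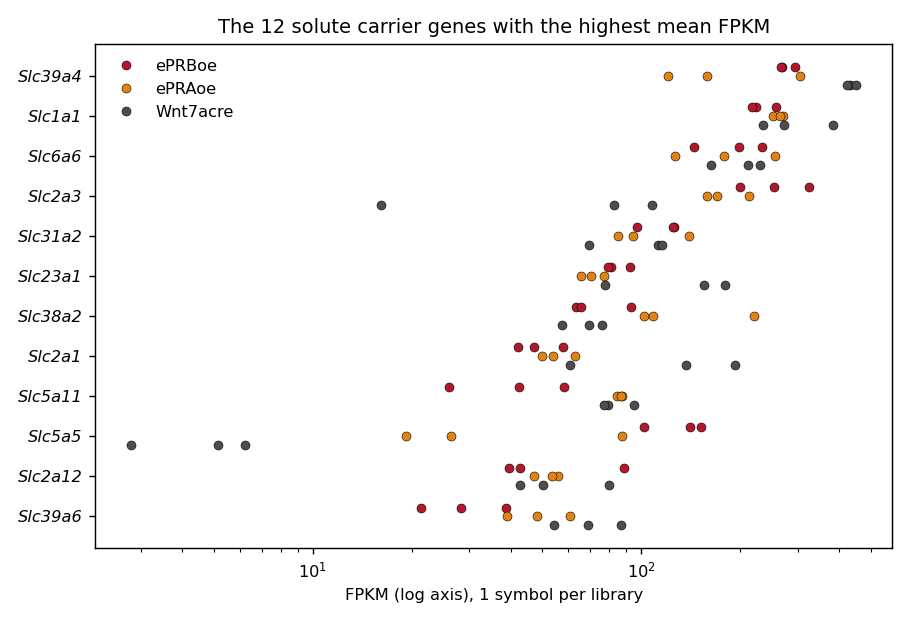
FPKM (log axis) of the 12 solute carrier genes with the highest mean, 1 symbol per library, with ePRBoe above ePRAoe and Wnt7acre in each row. Slc5a5 spans the widest range, between 2.80 FPKM in a control library and 152 FPKM in an ePRBoe library, while Slc1a1 and Slc6a6 overlap between genotypes.

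Against the controls, 50 of the 179 members that could be tested were called in ePRAoe at an adjusted p under 0.05, 17 higher and 33 lower. This is 27.9% of the tested members, beside 16.2% of all genes tested (7.2% higher, 8.98% lower), and a member had to reach 1 FPKM in 3 libraries to be tested. In ePRBoe, 26 of 179 were called, 13 higher and 13 lower, which is 14.5% beside 8.89% of all genes (6.41% higher, 2.48% lower). The median log2 change over the tested members was 0.03 in ePRBoe and -0.10 in ePRAoe, against 0.10 and -0.03 over all genes. Both comparisons use the same control libraries. Members called higher in both included Slc39a2, Slc5a5, Slc39a14, Slc24a4, Slc29a1 and Slc16a12. Lower in both were 13: Slc46a2, Slc10a2, Slc16a1, Slc13a2, Slc5a3, Slc34a2, Slc8a1, Slc2a1, Slc16a13, Slc35g1, Slc35g2, Slc16a6 and Slc44a1. No member was called in opposite directions, and 6 members were called higher in ePRBoe alone, 10 higher and 20 lower in ePRAoe alone. A call in 1 genotype alone does not show that the genotypes differ. These joint counts were not made over all genes called, so they show no pattern particular to the carriers. By libraries without overlap, whether called or not, 45 of the 179 members were higher and 42 lower than every control in ePRBoe, and 25 higher and 49 lower in ePRAoe, where over all genes tested 23.5% were higher and 16.3% lower in ePRBoe, and 12.6% and 16.2% in ePRAoe. The summed stroma markers were higher in all 6 of these overexpressing libraries as well, and their part in the counts was not tested.

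With any 1 of the 9 libraries left out, 15 of the 50 ePRAoe calls remained every time: Slc39a2, Slc5a5, Slc39a14 and Slc24a4 among the higher, and Slc46a2, Slc39a8, Slc43a2, Slc16a1, Slc16a13, Slc34a2, Slc20a1, Slc8a1, Slc5a3, Slc35g1 and Slc26a11 among the lower. Of the 26 ePRBoe calls, 3 remained every time, Slc5a5 and Slc29a1 among them. The ePRAoe count went down to 23, 22, 19 and 21 without ePRAoe replicate 2, ePRAoe replicate 3, Wnt7acre replicate 2 and Wnt7acre replicate 3. ePRAoe replicate 2 and Wnt7acre replicate 3 share run 1, and ePRAoe replicate 3 and Wnt7acre replicate 2 share run 2. With the run term, leaving out either library of such a pair removes the same within-run difference from the ePRAoe comparison. Losses of an ePRAoe call without either of a pair, here and below, are therefore not independent. The ePRBoe count was 5 without Wnt7acre replicate 3, the control of the run that held all ePRBoe libraries, 7 without ePRAoe replicate 2, 10 without ePRBoe replicate 2 and likewise without ePRBoe replicate 3, 16 without ePRBoe replicate 1 and 40 without ePRAoe replicate 1. With quantile normalization the ePRBoe split was 9 higher and 21 lower in place of 13 and 13. Neither the calls that remained nor these counts are set beside all genes here, so they show no pattern particular to the carriers.

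**Figure D2:**
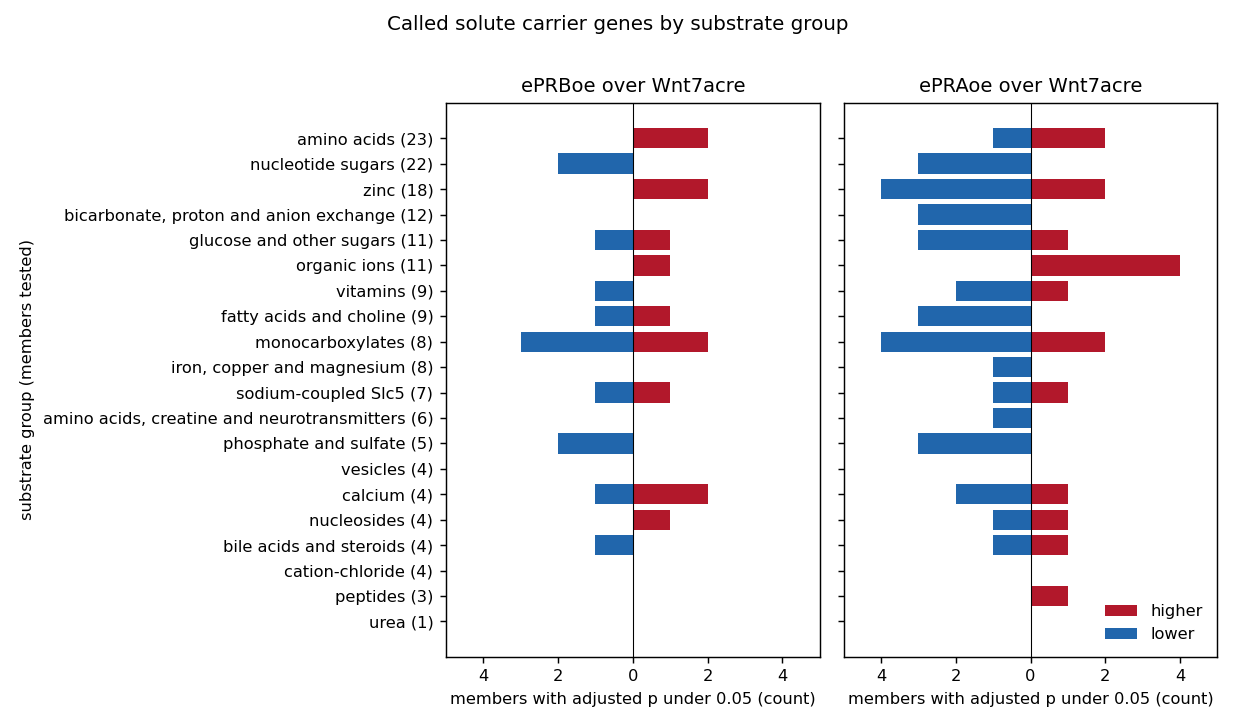
Number of members called higher (right of 0) and lower (left of 0) in each substrate group, for ePRBoe over Wnt7acre (left panel) and ePRAoe over Wnt7acre (right panel), with the number tested in parentheses. Over all genes tested, 8.89% were called in ePRBoe and 16.2% in ePRAoe. Zinc and monocarboxylate carriers have 6 calls each in ePRAoe. The 3 called members of the phosphate and sulfate group, which include the dicarboxylate carrier Slc13a2, are all lower. Slc13a2 and Slc34a2 met the filter for testing only with the controls.

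Zinc carriers moved in both directions. Of 19 members 18 could be tested. In ePRBoe 2 were called higher and 0 lower (11.1%, beside 8.89% of all genes). In ePRAoe 2 were called higher and 4 lower (33.3%, beside 16.2%). Slc39a2 (ENSMUSG00000072572.9, chromosome 14, 51892889 to 51896745, forward strand, mm10), a zinc importer of the cell surface, stood at 15.8, 15.4 and 27.0 FPKM in ePRBoe and at 20.5, 23.5 and 33.4 in ePRAoe, against 3.19, 0.554 and 1.43 in Wnt7acre. Every overexpressing library was above every control, with means of 19.4 ± 6.57 FPKM in ePRBoe, 25.8 ± 6.74 in ePRAoe and 1.73 ± 1.34 in Wnt7acre (SD, n = 3 each). Slc39a2 rose by 3.05 on the log2 scale in ePRBoe (SE 0.47, 8.27-fold, adjusted p = 0.0111) and by 3.39 in ePRAoe (SE 0.38, 10.5-fold, adjusted p = 0.00266). Within runs 1, 2 and 3 the ePRAoe difference was 3.33, 4.47 and 2.36, and within run 1 the ePRBoe difference was 3.02. The ePRBoe call was lost without ePRAoe replicate 2 (adjusted p = 0.0547) and without Wnt7acre replicate 3 (adjusted p = 0.110). Two-sided exact permutation tests of 3 against 3 gave p = 0.1 for both genotypes against controls, the smallest that 20 regroupings allow. The exons of Slc39a2 share 4.38% of their length with Mettl17 on the same strand.

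Slc39a14, an importer of zinc that also carries iron and manganese, moved with it at a higher level. It had 60.9, 62.2 and 69.6 FPKM in ePRBoe and 51.3, 67.5 and 63.7 in ePRAoe, against 25.1, 9.63 and 27.5 in Wnt7acre. The log2 increase was 1.37 in ePRBoe (SE 0.34, 2.59-fold, adjusted p = 0.0486) and 1.62 in ePRAoe (SE 0.28, 3.08-fold, adjusted p = 0.00951), and the ePRBoe call was lost without any ePRBoe library (adjusted p = 0.1002, 0.1119 and 0.1223), without ePRAoe replicate 2 (0.165) and without Wnt7acre replicate 3 (0.160). The zinc and manganese importer Slc39a8 went the other way, with 23.6, 17.2 and 8.17 FPKM in ePRBoe and 8.25, 3.59 and 5.47 in ePRAoe, against 43.6, 135 and 72.0 in Wnt7acre. On the log2 scale Slc39a8 fell by 3.55 in ePRAoe (SE 0.47, 11.7-fold lower, adjusted p = 0.00430). In ePRBoe its change of -1.97 (SE 0.57) did not pass (adjusted p = 0.0757), although all 3 libraries lay below the controls. Slc39a4 fell by 1.27 in ePRAoe (SE 0.24, adjusted p = 0.0138), a call lost without ePRAoe replicate 2 or 3 or Wnt7acre replicate 2 or 3 (adjusted p up to 0.0802), and its change in ePRBoe was -0.35 (adjusted p = 0.511). With Slc39a4 at this level, the 19 zinc members summed to 591 to 625 FPKM in ePRBoe, 436 to 620 in ePRAoe and 762 to 899 in Wnt7acre.

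Among the exporters, Slc30a1, which removes zinc across the cell surface, had 8.70, 7.43 and 6.45 FPKM in ePRBoe and 7.21, 6.24 and 7.51 in ePRAoe, against 13.1, 22.4 and 12.6 in Wnt7acre. Its log2 change in ePRAoe was -1.05 (SE 0.18, adjusted p = 0.00967; 0.0505 without Wnt7acre replicate 2), and in ePRBoe a change of -0.75 had an adjusted p of 0.0793. Slc30a5, which loads zinc into the secretory pathway, fell by 0.71 in ePRAoe (SE 0.17, adjusted p = 0.0275; up to 0.0785 with 1 library left out). Slc39a6, an importer linked to epithelial shape change, stood at 28.3, 21.3 and 38.7 FPKM in ePRBoe, 39.1, 60.8 and 48.3 in ePRAoe and 68.8, 86.8 and 54.3 in Wnt7acre, and did not pass in either comparison (log2 -1.23, adjusted p = 0.0564 in ePRBoe; -0.49, adjusted p = 0.245 in ePRAoe). The median log2 change over the 18 was 0.16 in ePRBoe and -0.11 in ePRAoe.

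**Figure D3:**
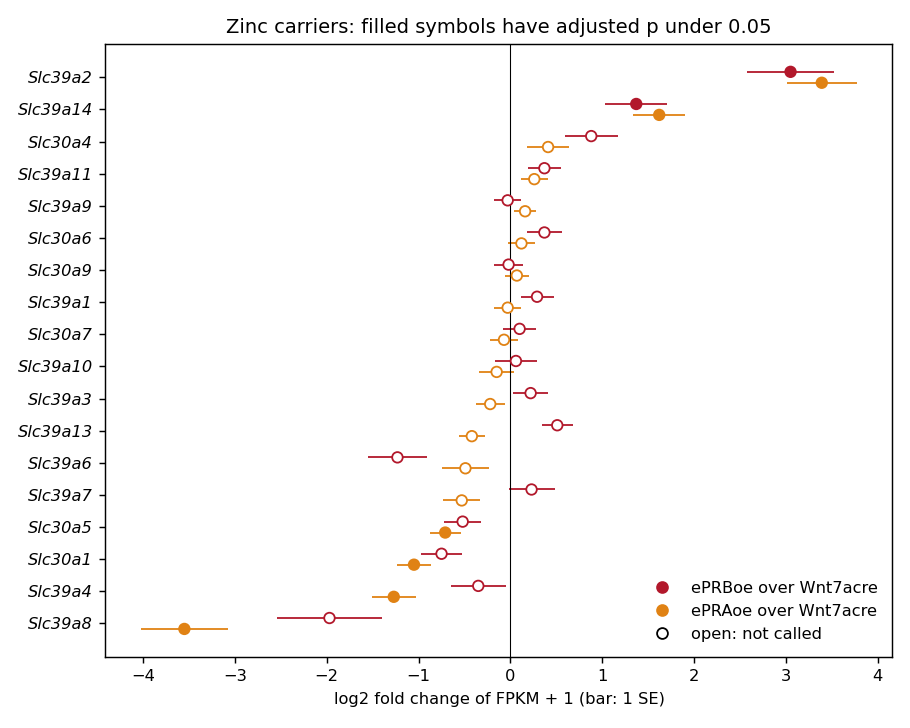
Log2 fold change of FPKM + 1 (1 SE as bars) of the 18 tested zinc carriers in ePRBoe and ePRAoe over Wnt7acre, filled where the adjusted p is under 0.05. Slc39a2 and Slc39a14 stand to the right in both genotypes, and Slc39a8 lies furthest to the left at -3.55 in ePRAoe and -1.97 in ePRBoe.

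The promoters of 3 zinc carriers that changed in opposite directions in ePRAoe, Slc39a2, Slc39a8 and Slc30a1, are shown with that of Slc5a5, the carrier that rose most in ePRBoe on the log2 scale, because zinc genes are known to respond to the metal-sensing factor MTF1 through metal response elements. Each is 5′ to 3′ on the gene's strand and runs 250 bases before to 50 bases after a transcription start in RefSeq (GRCm38.p6). Capitals mark matches to the metal response element cores TGCACNC or TGCGCNC on either strand.
Slc39a2, chr14:51893360-51893659, forward strand, no match: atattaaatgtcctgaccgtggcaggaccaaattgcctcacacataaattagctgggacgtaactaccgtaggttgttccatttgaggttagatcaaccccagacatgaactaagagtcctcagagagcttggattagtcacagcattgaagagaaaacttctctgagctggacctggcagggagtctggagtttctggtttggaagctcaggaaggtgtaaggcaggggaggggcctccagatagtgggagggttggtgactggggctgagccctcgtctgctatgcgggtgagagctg
Slc39a8, chr3:135825407-135825706, forward strand, 1 match: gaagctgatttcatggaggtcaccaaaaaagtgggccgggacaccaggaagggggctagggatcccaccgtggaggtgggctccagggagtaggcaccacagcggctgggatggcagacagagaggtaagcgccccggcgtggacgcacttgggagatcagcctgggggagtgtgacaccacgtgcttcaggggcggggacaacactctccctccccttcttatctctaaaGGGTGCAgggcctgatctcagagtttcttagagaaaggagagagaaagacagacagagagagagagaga
Slc30a1, chr1:191906531-191906830, forward strand, 2 matches: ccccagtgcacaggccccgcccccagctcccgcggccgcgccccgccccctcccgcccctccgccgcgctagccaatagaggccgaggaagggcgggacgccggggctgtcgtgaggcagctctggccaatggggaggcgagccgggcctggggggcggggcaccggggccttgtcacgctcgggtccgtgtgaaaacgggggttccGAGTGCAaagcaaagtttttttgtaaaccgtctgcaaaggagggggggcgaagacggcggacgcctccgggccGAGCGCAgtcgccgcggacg
Slc5a5, chr8:70892708-70893007, reverse strand, no match: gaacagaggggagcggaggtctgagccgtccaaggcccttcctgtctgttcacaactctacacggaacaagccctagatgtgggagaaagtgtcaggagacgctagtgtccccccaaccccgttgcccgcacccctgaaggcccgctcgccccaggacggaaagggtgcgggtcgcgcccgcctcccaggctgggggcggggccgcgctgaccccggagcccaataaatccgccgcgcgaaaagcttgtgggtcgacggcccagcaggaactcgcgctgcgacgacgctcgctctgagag
The other RefSeq start of Slc39a8, with its window at chr3:135825029-135825328, has no match. A promoter was found for 179 of the 233 members by symbol. Either metal response element core stood in 66 of these 179 (36.9%), against 28.2% of all 27025 genes with a promoter. It stood in 8 of 16 zinc carriers (50%), in 5 of 16 members called higher in an overexpressing genotype (31.2%) and in 15 of 24 called lower (62.5%), where a gene with several starts counts once if any of its windows has a match. The progesterone receptor element core ACANNNTGT was in 9 of 179 members (5.03%), 0 of 16 called higher and 1 of 24 called lower, against 7.9% of all genes. These are matches of letters in short windows and no measure of binding.

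Slc5a5 was the carrier with the largest rise in ePRBoe on the log2(FPKM + 1) scale. It encodes the sodium/iodide symporter, which concentrates iodide in the thyroid and in lactating mammary gland, and lies on chromosome 8, 70882889 to 70892757, reverse strand (ENSMUSG00000000792.2). Its level was 152, 102 and 141 FPKM in ePRBoe and 19.2, 87.5 and 26.4 in ePRAoe, against 2.80, 5.14 and 6.21 in Wnt7acre. The 3 genotypes did not overlap, with ePRBoe on top, and the means were 132 ± 26.4 FPKM in ePRBoe, 44.4 ± 37.6 in ePRAoe and 4.72 ± 1.74 in Wnt7acre (SD, n = 3 each). With the run term, Slc5a5 rose by 3.73 in ePRBoe (SE 0.35, 13.3-fold, adjusted p = 0.00317) and by 2.73 in ePRAoe (SE 0.28, 6.62-fold, adjusted p = 0.00219), and both calls remained with any 1 library left out. The plain difference of mean log2 values, without the run term, was 4.57 in ePRBoe and 2.73 in ePRAoe. Exact permutation tests gave p = 0.1 for each pair of genotypes, the smallest possible. Against ePRAoe, ePRBoe was higher by 1.01 (SE 0.35, 95% interval 0.20 to 1.82), which did not pass (adjusted p = 0.197). Within run 1, which held all ePRBoe libraries, the log2 difference of their mean from ePRAoe replicate 2 was 0.56. The lower ePRAoe values, 19.2 and 26.4 FPKM, came from other runs.

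Another sodium-coupled carrier of the same family fell. Slc5a3, which brings in the osmolyte myo-inositol, had 9.17, 4.81 and 10.7 FPKM in ePRBoe and 5.34, 8.56 and 16.99 in ePRAoe, against 27.4, 48.7 and 32.5 in Wnt7acre, with no overlap. It fell by 1.92 in ePRBoe (SE 0.33, adjusted p = 0.0153) and by 1.81 in ePRAoe (SE 0.27, adjusted p = 0.00600); the ePRBoe call was lost without ePRAoe replicate 2 (adjusted p = 0.06635) or Wnt7acre replicate 3 (0.143). The other inositol carrier, Slc5a11, had 42.5, 26.0 and 58.1 FPKM in ePRBoe and 87.6, 84.6 and 86.7 in ePRAoe, against 94.8, 79.0 and 77.0 in Wnt7acre. The ePRBoe libraries lay below all libraries of the other genotypes, but the log2 change of -0.97 in ePRBoe against controls had an adjusted p of 0.111. Of the 7 Slc5 members tested, 1 was called higher and 1 lower in each overexpressing genotype. This is 28.6%, beside 8.89% of all genes in ePRBoe and 16.2% in ePRAoe.

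**Figure D4:**
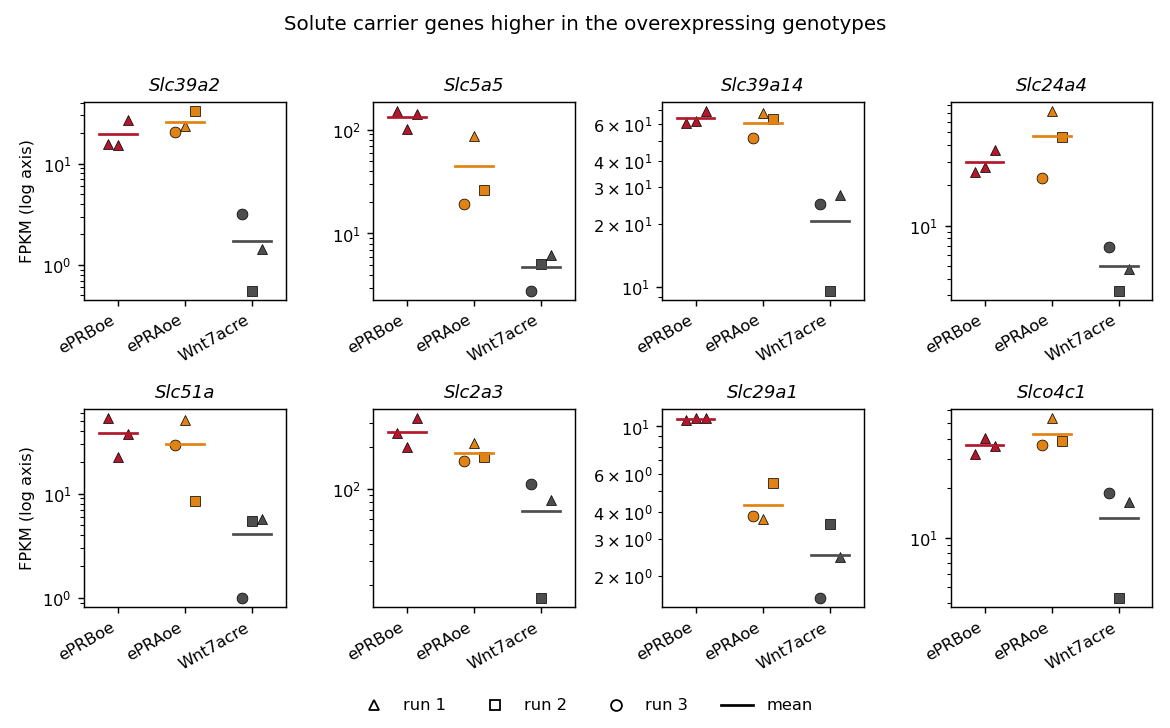
FPKM (log axes, a separate range in each panel) of 8 carriers called higher in at least 1 overexpressing genotype, by genotype, with 1 symbol per library shaped by sequencing run and a line at the mean. Slc5a5 is at 102 to 152 FPKM in ePRBoe, 19.2 to 87.5 in ePRAoe and 2.80 to 6.21 in Wnt7acre, and Slc29a1 is close to 11 FPKM in all 3 ePRBoe libraries.

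Glucose carriers changed in opposite directions. Slc2a3 (GLUT3), a glucose importer of high affinity, had 254, 200.1 and 323 FPKM in ePRBoe and 158, 213 and 170.0 in ePRAoe, against 108, 16.1 and 82.6 in Wnt7acre. All overexpressing libraries were above the controls, and the increase of 1.74 in ePRAoe passed (SE 0.46, 3.34-fold, adjusted p = 0.0414), while 1.80 in ePRBoe (SE 0.56) did not (adjusted p = 0.0931). Slc2a1 (GLUT1), the widespread basal glucose importer, had 57.9, 42.0 and 47.2 FPKM in ePRBoe and 49.8, 62.7 and 53.9 in ePRAoe, against 60.6, 193 and 137 in Wnt7acre. It fell by 1.45 in ePRBoe (SE 0.33, adjusted p = 0.0370) and by 1.07 in ePRAoe (SE 0.27, adjusted p = 0.0356), where ePRAoe replicate 2 overlapped Wnt7acre replicate 1. The ePRAoe calls of both genes were lost without any one of ePRBoe replicates 1 to 3, ePRAoe replicates 2 and 3 or Wnt7acre replicates 2 and 3 (adjusted p up to 0.115 for Slc2a3 and 0.149 for Slc2a1), and the ePRBoe call of Slc2a1 reached 0.233 without Wnt7acre replicate 3. Slc37a4, which moves glucose 6-phosphate into the endoplasmic reticulum, fell by 1.06 in ePRAoe (adjusted p = 0.0121) and Slc45a4 by 1.45 (adjusted p = 0.00740), with adjusted p up to 0.0723 and 0.0550 without Wnt7acre replicate 3. Slc37a1, a sugar phosphate exchanger, rose by 1.17 in ePRBoe (adjusted p = 0.0479; 0.309 without Wnt7acre replicate 3). In all, 1 of the 11 sugar carriers tested was called higher and 1 lower in ePRBoe (18.2%), and 1 higher and 3 lower in ePRAoe (36.4%). Shares over all genes were 8.89% and 16.2%.

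Of the 8 monocarboxylate carriers tested, 2 were called higher and 3 lower in ePRBoe (62.5%), and 2 higher and 4 lower in ePRAoe (75%). Shares over all genes were 8.89% and 16.2%. Slc16a1 (MCT1), which carries lactate and pyruvate, had 2.28, 1.24 and 1.73 FPKM in ePRBoe and 0.566, 1.25 and 2.64 in ePRAoe, against 6.35, 17.7 and 11.1 in Wnt7acre. It fell by 2.11 in ePRBoe (SE 0.23, 4.33-fold lower, adjusted p = 0.00491) and by 2.34 in ePRAoe (SE 0.19, 5.06-fold lower, adjusted p = 0.00147), with within-run differences of -2.43, -2.36 and -2.23 in ePRAoe. Only without Wnt7acre replicate 3 did the ePRBoe change miss the threshold (adjusted p = 0.0601). Slc16a13 fell by 1.05 in ePRBoe (adjusted p = 0.00849; 0.0760 without Wnt7acre replicate 3) and by 1.21 in ePRAoe (adjusted p = 0.00204), although ePRAoe replicate 3 at 17.1 FPKM overlapped Wnt7acre replicate 1 at 14.7. Slc16a6 fell by 1.17 in ePRBoe (adjusted p = 0.0316) and by 0.92 in ePRAoe (adjusted p = 0.0241). Slc16a6 shares 21.5% of its exonic length with Amz2 on the opposite strand, and its call is uncertain because no strand setting is given. Slc16a11 fell by 1.44 in ePRAoe (adjusted p = 0.0145). Slc16a12, which carries creatine, rose by 1.23 in ePRBoe (adjusted p = 0.0403) and by 1.03 in ePRAoe (adjusted p = 0.0252), where ePRAoe replicate 3 at 5.82 FPKM overlapped the controls. With 1 library left out, the adjusted p of Slc16a6, Slc16a11 and Slc16a12 went up to 0.195, 0.0845 and 0.116 at most, without Wnt7acre replicate 3, ePRAoe replicate 2 and ePRBoe replicate 2.

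Of the 5 tested in the phosphate and sulfate group, 2 were called lower in ePRBoe (40%) and 3 in ePRAoe (60%), with none called higher. Shares over all genes, in either direction, were 8.89% and 16.2%. Of these members, Slc34a2 and Slc13a2 met the filter for testing only with the controls, so they could be called only as falls. Slc34a2, the sodium-phosphate cotransporter of lung and gut epithelium, had 0.692, 1.31 and 0.146 FPKM in ePRBoe, was listed at 0, 0.036 and 0.073 in ePRAoe, and had 5.43, 2.69 and 3.55 FPKM in Wnt7acre. It fell by 1.5 in ePRBoe (adjusted p = 0.0478; lost without any 1 of the 9 libraries, up to 0.236 without Wnt7acre replicate 3) and by 2.20 in ePRAoe (adjusted p = 0.00472). Slc20a1, the widespread phosphate importer also known as a retrovirus receptor, fell by 1.93 in ePRAoe (SE 0.30, adjusted p = 0.00645), with 3.10, 2.06 and 1.86 FPKM in ePRBoe, 0.397, 1.08 and 5.07 in ePRAoe and 8.22, 12.7 and 6.73 in Wnt7acre. Its ePRBoe change of -1.25 did not pass (adjusted p = 0.0760). Slc13a2 carries citrate and other dicarboxylates, and not phosphate. It had 0.509, 0.373 and 0.611 FPKM in ePRBoe, was listed at 0, 0 and 0.102 in ePRAoe and had 1.39, 12.4 and 7.64 FPKM in Wnt7acre, and fell by 2.30 in ePRBoe (adjusted p = 0.0309; up to 0.0863 without ePRBoe replicate 2) and by 2.66 in ePRAoe (adjusted p = 0.00630). It shares 26.2% of its exonic length with Slc13a2os on the other strand, so the assignment of its reads is uncertain. The citrate carrier Slc13a5, the highest of the group, ranged over 19.2 to 67.7 FPKM in ePRBoe, 9.93 to 52.2 in ePRAoe and 2.74 to 29.0 in Wnt7acre and did not pass (log2 1.84 in ePRBoe and 0.86 in ePRAoe).

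Slc46a2, known as a membrane protein of thymic stroma and related to the folate importer, had the largest fall of any member in ePRAoe on the log2(FPKM + 1) scale, which compresses the change of carriers that came near 0, such as Slc10a2, Slc13a2 and Slc34a2. It stood at 7.19, 5.42 and 7.27 FPKM in ePRBoe and at 3.62, 1.44 and 5.61 in ePRAoe, against 28.5, 87.6 and 56.9 in Wnt7acre. The log2 change was -2.48 in ePRBoe (SE 0.39, 5.58-fold lower, adjusted p = 0.0120; 0.134 without Wnt7acre replicate 3) and -3.66 in ePRAoe (SE 0.32, 12.7-fold lower, adjusted p = 0.00170), and within runs 1, 2 and 3 the ePRAoe difference was -4.57, -3.74 and -2.68. Its relative Slc46a1, the proton-coupled folate importer, rose by 0.92 in ePRAoe (adjusted p = 0.0257; 0.136 without ePRAoe replicate 2), with 13.3 to 20.8 FPKM in ePRBoe, 10.3 to 19.6 in ePRAoe and 6.97 to 8.16 in Wnt7acre. Slc23a1, a vitamin C importer of epithelia, had 80.6, 92.5 and 79.0 FPKM in ePRBoe and 70.3, 77.1 and 65.3 in ePRAoe, against 77.4, 155 and 180 in Wnt7acre. It fell by 0.86 in ePRAoe (adjusted p = 0.0382; 0.177 without ePRAoe replicate 2), and its change of -0.92 in ePRBoe had an adjusted p of 0.0812. Of the 9 vitamin carriers tested, 1 was called lower in ePRBoe (11.1%), and 1 higher and 2 lower in ePRAoe (33.3%). Shares over all genes were 8.89% and 16.2%.

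**Figure D5:**
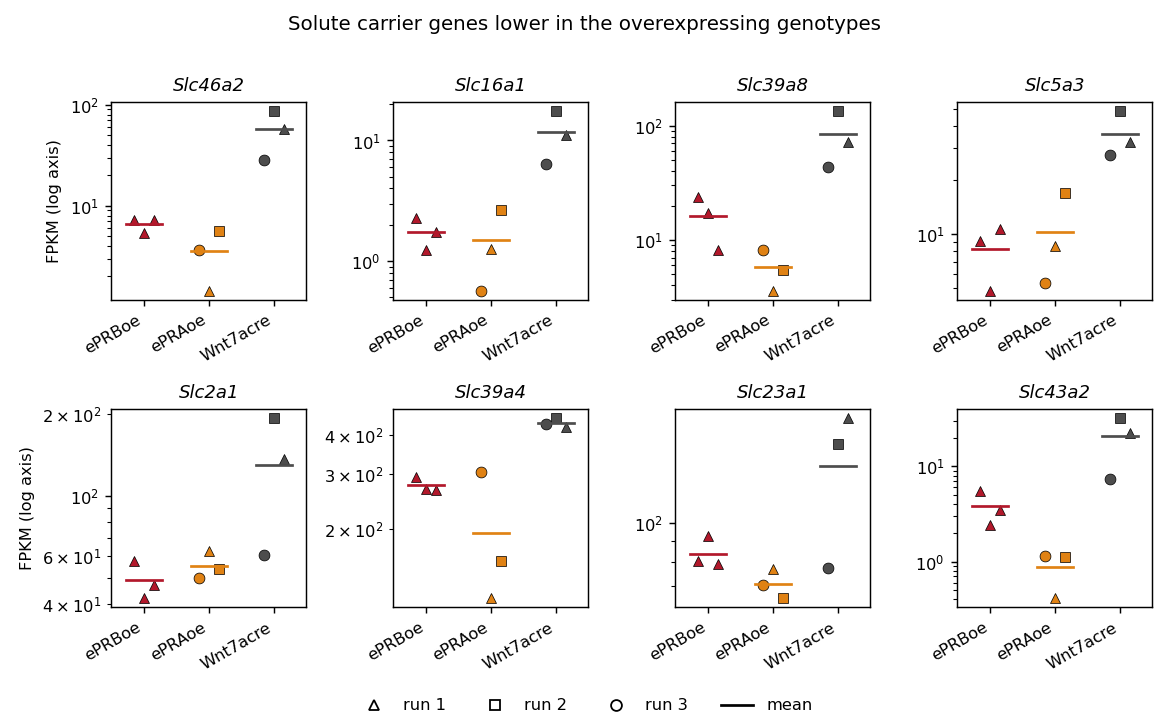
FPKM (log axes, a separate range in each panel) of 8 carriers called lower in at least 1 overexpressing genotype, by genotype, with 1 symbol per library shaped by sequencing run and a line at the mean. Among the controls, the symbol of run 3 (Wnt7acre replicate 1) lies nearest the overexpressing libraries for Slc46a2, Slc16a1, Slc39a8, Slc5a3, Slc2a1, Slc23a1 and Slc43a2.

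Bile acid carriers went opposite ways. Slc10a2, the sodium-coupled bile acid importer of the ileum, had 0.130, 0.149 and 0.037 FPKM in ePRBoe and was listed at 0, 0 and 0.056 in ePRAoe, against 2.40, 16.8 and 8.44 FPKM in Wnt7acre. It fell by 2.99 in ePRBoe (SE 0.47, adjusted p = 0.0121; 0.0520 without ePRAoe replicate 2) and by 3.03 in ePRAoe (SE 0.38, adjusted p = 0.00383), values that the pseudocount of 1 FPKM makes smaller. Slc10a2 met the filter for testing through the controls alone, so it could be called only as a fall. Slc51a, a subunit of the basolateral exporter of bile acids and steroid conjugates, had 53.1, 22.7 and 37.8 FPKM in ePRBoe and 29.5, 51.1 and 8.57 in ePRAoe, against 0.985, 5.51 and 5.66 in Wnt7acre. Its rise of 2.49 in ePRAoe passed (SE 0.58, 5.61-fold, adjusted p = 0.0277; up to 0.141 without ePRAoe replicate 2), and 2.22 in ePRBoe did not (SE 0.71, adjusted p = 0.0992). Slc51a shares 17.7% of its exonic length with Pcyt1a on the other strand.

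Calcium exchangers also split. Slc24a4, which exchanges sodium for calcium and potassium, had 25.3, 27.4 and 36.7 FPKM in ePRBoe and 22.7, 72.8 and 46.4 in ePRAoe, against 6.93, 3.24 and 4.75 in Wnt7acre. It rose by 2.02 in ePRBoe (SE 0.46, 4.05-fold, adjusted p = 0.0376) and by 2.91 in ePRAoe (SE 0.38, 7.54-fold, adjusted p = 0.00412). The ePRBoe call was lost in 7 of the 9 settings with 1 library left out, with an adjusted p of 0.362 without Wnt7acre replicate 3. Slc8a1, the sodium/calcium exchanger of heart and kidney, had 2.64, 1.16 and 1.13 FPKM in ePRBoe and 0.289, 0.849 and 2.51 in ePRAoe, against 4.00, 8.91 and 9.09 in Wnt7acre, a fall of 1.74 in ePRBoe (adjusted p = 0.0227; 0.245 without Wnt7acre replicate 3) and of 1.97 in ePRAoe (adjusted p = 0.00513). Slc8b1, the mitochondrial exchanger, fell by 1.69 in ePRAoe (adjusted p = 0.0139; up to 0.0783 without Wnt7acre replicate 3), and Slc24a3 rose by 1.10 in ePRBoe (adjusted p = 0.0309; 0.102 without Wnt7acre replicate 3) at only 1.40 to 1.59 FPKM.

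Of 23 amino acid carriers tested, 2 were called higher in ePRBoe (8.7%), and 2 higher and 1 lower in ePRAoe (13.0%). Shares over all genes were 8.89% and 16.2%. Of the Slc6 members tested, 16.7% were called in ePRAoe. Slc43a2, a carrier of large neutral amino acids, had 5.50, 2.45 and 3.47 FPKM in ePRBoe and 1.14, 0.410 and 1.10 in ePRAoe, against 7.34, 32.1 and 22.5 in Wnt7acre. Its log2 change in ePRAoe was -3.33 (SE 0.42, 10.1-fold lower, adjusted p = 0.00382), and its change of -1.98 in ePRBoe had an adjusted p of 0.0563. Slc38a2, an importer of small neutral amino acids that cells raise when starved of them, had 63.3, 65.5 and 93.1 FPKM in ePRBoe and 102, 220.3 and 109 in ePRAoe, against 76.2, 57.2 and 69.1 in Wnt7acre. It rose by 1.00 in ePRAoe (SE 0.25, adjusted p = 0.0352; 0.155 without Wnt7acre replicate 3), and the ePRBoe change was -0.26. Slc7a4 rose by 1.65 in ePRAoe (adjusted p = 0.00760; 0.0518 without ePRAoe replicate 3), and 13.3% of its exonic length overlaps P2rx6 on the other strand. In ePRBoe the neutral amino acid exchanger Slc7a8 rose by 1.82 (SE 0.36, adjusted p = 0.0230), at 8.63, 11.3 and 11.3 FPKM against 2.15, 1.49 and 3.07 in Wnt7acre, and Slc43a3, which carries purine bases, rose by 1.34 (adjusted p = 0.0307). The 2 calls reached adjusted p of 0.0811 without ePRAoe replicate 2 and 0.125 without Wnt7acre replicate 3. The glycine importer Slc6a9 of the Slc6 family fell by 1.67 in ePRAoe (adjusted p = 0.0138; up to 0.0857 without Wnt7acre replicate 3) and was the only call among the 6 Slc6 members tested, but it shares 27.8% of its exonic length with Ccdc24 on the other strand. The peptide importer Slc15a1 rose by 2.85 in ePRAoe (SE 0.60, adjusted p = 0.0185; up to 0.0797 without ePRAoe replicate 3), where libraries of 5.601, 46.6 and 38.9 FPKM overlapped the controls at 1.39, 0.633 and 7.52, while ePRBoe had 8.81, 20.7 and 28.2 FPKM.

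Of 4 nucleoside carriers tested, 1 was called higher in ePRBoe (25%), and 1 higher and 1 lower in ePRAoe (50%). Shares over all genes were 8.89% and 16.2%. Slc29a1 (ENT1), which equilibrates adenosine and other nucleosides, had 10.7, 10.9 and 10.9 FPKM in ePRBoe and 3.83, 3.71 and 5.44 in ePRAoe, against 1.58, 3.49 and 2.46 in Wnt7acre. It rose by 1.86 in ePRBoe (SE 0.19, 3.64-fold, adjusted p = 0.00445) with any 1 library left out, and by 0.62 in ePRAoe (SE 0.16, adjusted p = 0.0345), a call lost without any 1 of the 9 (adjusted p up to 0.0896 without ePRAoe replicate 3). Slc28a3, a concentrating nucleoside importer, fell by 1.57 in ePRAoe (SE 0.31, adjusted p = 0.0161; up to 0.0969 without Wnt7acre replicate 3), with 13.3 to 34.6 FPKM in ePRBoe, 11.4 to 23.2 in ePRAoe and 46.4 to 54.8 in Wnt7acre.

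Organic ion carriers were called in 1 direction, with 0 lower in either genotype. Of 11 tested, 1 was higher in ePRBoe (9.09%) and 4 in ePRAoe (36.4%), beside 8.89% and 16.2% of all genes in either direction. Slco4c1, an organic anion importer, had 32.4, 40.5 and 36.3 FPKM in ePRBoe and 36.8, 53.4 and 38.8 in ePRAoe, against 18.6, 4.25 and 16.5 in Wnt7acre. It rose by 1.84 in ePRAoe (SE 0.32, adjusted p = 0.0102; 0.0527 without ePRAoe replicate 2), and 1.19 in ePRBoe had an adjusted p of 0.107. Slco3a1, a prostaglandin carrier, rose by 1.5 in ePRAoe (adjusted p = 0.0144), Slco5a1 by 1.09 (adjusted p = 0.0488) and Slc22a18 by 0.69 (adjusted p = 0.0252), all 3 lost without ePRAoe replicate 2 (0.0895, 0.210 and 0.0653). Slc22a17, described as a receptor for lipocalin 2, rose by 1.40 in ePRBoe (SE 0.21, adjusted p = 0.0110; 0.0706 without Wnt7acre replicate 3), with 5.32, 6.18 and 5.90 FPKM, beside 3.11, 1.93 and 1.87 in ePRAoe and 1.71, 1.52 and 1.78 in Wnt7acre.

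Lipid, choline, nucleotide sugar and anion carriers were mostly lower where they were called. In ePRBoe 22.2% of the fatty acid and choline group and 9.09% of the nucleotide sugar group were called, beside 8.89% of all genes. In ePRAoe the shares were 33.3% and 13.6%, beside 16.2% of all genes. The choline importer Slc44a1 fell by 0.81 in ePRBoe (adjusted p = 0.0312) and by 0.59 in ePRAoe (adjusted p = 0.0296), with 14.9 to 18.9 FPKM in ePRBoe, 17.6 to 23.1 in ePRAoe and 25.7 to 33.9 in Wnt7acre. In ePRAoe Slc44a4 fell by 1.08 (adjusted p = 0.0336) and Slc27a4, a fatty acid transport protein, by 1.00 (adjusted p = 0.0425). In ePRBoe Slc33a1, which takes acetyl-CoA into the endoplasmic reticulum, rose by 1.39 (SE 0.27, adjusted p = 0.0218), at 17.5, 29.2 and 21.6 FPKM against 4.68, 6.70 and 7.53 in Wnt7acre, although 32.0% of its exonic length overlaps Gm26850 on the other strand. Of 22 members in families of nucleotide sugar carriers, 2 were called lower in ePRBoe and 3 in ePRAoe, with 0 higher: Slc35g1 fell by 1.01 in ePRBoe (adjusted p = 0.0315) and 1.27 in ePRAoe (adjusted p = 0.00502), Slc35g2 by 1.05 in ePRBoe (adjusted p = 0.0443) and 1.11 in ePRAoe (adjusted p = 0.0128), and Slc35f6 by 0.61 in ePRAoe alone (adjusted p = 0.0405). Of 12 exchangers of bicarbonate, protons and anions, 3 were called lower in ePRAoe (25%, beside 16.2% of all genes) and 0 in ePRBoe. These were the sulfate carriers Slc26a1 (log2 -1.99, adjusted p = 0.0176) and Slc26a11 (-1.11, adjusted p = 0.00593) and the sodium/proton exchanger Slc9a2 (-1.75, adjusted p = 0.0418). The heme carrier Slc48a1 fell by 1.45 in ePRAoe (adjusted p = 0.0135). It was the only call among 8 iron, copper and magnesium carriers (12.5%, beside 16.2% of all genes). Apart from Slc35g1 and Slc26a11 in ePRAoe, each of these lipid, nucleotide sugar, anion and heme carrier calls was lost without at least 1 library, with adjusted p of up to 0.197 in ePRAoe (Slc9a2 without Wnt7acre replicate 2) and up to 0.313 in ePRBoe (Slc35g2 without Wnt7acre replicate 3).

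Some groups had no call against the controls. These were the cation-chloride cotransporters (4 tested, highest Slc12a7 at 5.12 to 8.59 FPKM in ePRBoe, 5.30 to 13.6 in ePRAoe and 4.44 to 8.78 in Wnt7acre), the vesicle carriers (4 tested, highest Slc17a5) and the urea carrier Slc14a1. Slc14a1 varied widely within genotypes, with 2.26, 16.0 and 1.27 FPKM in ePRBoe, 0.533, 0.609 and 0.818 in ePRAoe and 8.20, 0.457 and 22.4 in Wnt7acre. None of the 6 tested genes that are no carriers was called, the highest being the scaffold protein gene Slc9a3r2. The 54 members left untested include 34 that stayed under 1 FPKM in every library. Of the untested, the highest value was that of the organic anion carrier Slco4a1, which was chosen after its values were seen: it had 0.664, 0.458 and 0.458 FPKM in ePRBoe, 0, 0.137 and 0.275 in ePRAoe and 0.847, 14.6 and 9.28 in Wnt7acre, and missed the filter because only 2 libraries reached 1 FPKM.

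Between ePRBoe and ePRAoe, 0 of 179 members were called, beside 0.324% of all genes (0.316% higher, 0.0081% lower). By libraries without overlap, 30 members were higher and 9 lower in ePRBoe, where over all genes 16.8% were higher and 5.8% lower. With limma's unadjusted p, 33 of 179 members were under 0.05, beside 2310 of all 12347 genes tested, and without the variance trend 1 was called. The median log2 difference over the members was 0.21, against 0.15 over all genes, and that shift of all genes was 0.04 with median-of-ratios scaling and -0.03 with quantile normalization. The 3 smallest p-values were those of Slc29a1 (log2 1.24, SE 0.19, adjusted p = 0.0580), Slc39a13, a zinc importer of the secretory pathway (0.93, SE 0.17, adjusted p = 0.0706), and Slc22a17 (1.11, SE 0.21, adjusted p = 0.0775). All 3 were higher in every ePRBoe library than in any ePRAoe library. Slc39a13 had 11.7, 12.6 and 10.9 FPKM in ePRBoe and 5.79, 5.32 and 7.52 in ePRAoe, and the controls lay between at 7.74, 9.56 and 8.47. In the other direction, Slc38a2 (log2 -1.25, adjusted p = 0.114) and the bicarbonate importer Slc4a7 (-0.74, adjusted p = 0.107) were lower in every ePRBoe library than in any ePRAoe library. Without ePRAoe replicate 1, 11 members were called, and without Wnt7acre replicate 1, which shares its run only with that library, 12 were, with Slc29a1, Slc22a17 and Slc39a13 among both. Shares over all genes in these settings are not given here. For Slc39a2 the difference was -0.34 (95% interval -1.42 to 0.74, adjusted p = 0.722). All ePRBoe libraries came from run 1, where ePRAoe replicate 2 is the only ePRAoe library. Summed immune cell markers were also higher in every ePRBoe library than in any ePRAoe library, with 7 of 15 called higher, and their part in these differences was not tested.

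Over the 179 tested members the median coefficient of variation was 20.9% in ePRBoe, 32.3% in ePRAoe and 25.9% in Wnt7acre, against 12.5% in ePRBoe, 22.8% in ePRAoe and 19.9% in Wnt7acre over all genes tested. For 37 of the 50 members called in ePRAoe the smallest within-run difference was that of run 3, against 9 for run 2 and 4 for run 1. Run 3 pairs ePRAoe replicate 1 with Wnt7acre replicate 1, the control with the highest Pgr, and Wnt7acre replicate 1 was the control nearest to the ePRAoe direction for 30 of the 50 members. These counts were not made over all genes called, so they show no pattern particular to the carriers. The part of Pgr in these counts was not tested.

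Genes that work with these carriers were read beside them, with the same test. Over all genes tested, 8.89% were called in ePRBoe and 16.2% in ePRAoe. The metallothioneins Mt1 and Mt2 buffer zinc. Mt1 had 689, 751 and 908 FPKM in ePRBoe and 834, 784 and 433 in ePRAoe, against 487, 301 and 311 in Wnt7acre, and rose by 1.09 in ePRBoe (adjusted p = 0.0472) and by 0.88 in ePRAoe (adjusted p = 0.0344), where ePRAoe replicate 3 overlapped the controls. Mt2 rose by 0.74 in ePRAoe (adjusted p = 0.0384), and Mtf1, the zinc-sensing factor, fell by 0.71 there (adjusted p = 0.0190). Alkaline phosphatase Alpl, a zinc enzyme, rose by 3.10 in ePRAoe (SE 0.40, adjusted p = 0.00401), with 3.64, 3.417 and 5.53 FPKM in ePRBoe, 7.99, 44.4 and 29.6 in ePRAoe and 1.72, 1.41 and 2.00 in Wnt7acre. Without Wnt7acre replicate 3 the Mt1 calls were lost (adjusted p = 0.368 in ePRBoe and 0.140 in ePRAoe), as was that of Mtf1 (0.0979), and Mt2 reached 0.153 without Wnt7acre replicate 2. Of 8 tested genes listed as zinc companions, 1 was called higher and 0 lower in ePRBoe (12.5%), and 4 higher and 3 lower in ePRAoe (87.5%). Of these ePRAoe calls only that of Alpl remained with any 1 library left out. The calls of Car2 and Car12 were lost without ePRAoe replicate 2 (adjusted p = 0.08945 and 0.224), and that of S100g without ePRAoe replicate 3 (0.0595). The list was chosen with earlier results of these data known. Of 6 iodide companions tested none was called in ePRBoe, and in ePRAoe Kcnq1, a potassium channel subunit, fell by 0.81 (adjusted p = 0.0253). That call is 16.7% of the 6, near the share of all genes. Of 5 tested genes listed as partners of Slc16 and other carriers (Bsg, Emb, Nptn, Itm2b and Heph), 2 fell in ePRAoe (40%) and 0 were called in ePRBoe. Heph is also counted among the iron genes, and whether Itm2b and Heph act as such partners was not tested. Emb fell by 1.29 (adjusted p = 0.0121) and Nptn by 0.58 (adjusted p = 0.0245). The calls of Kcnq1, Emb and Nptn were lost without ePRAoe replicate 2 (adjusted p = 0.123, 0.0731 and 0.0957).

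Among 17 glycolysis genes, 1 was called lower in ePRBoe (5.88%), and 1 higher and 4 lower in ePRAoe (29.4%). Shares over all genes were 8.89% and 16.2%. Hk2, which phosphorylates imported glucose, rose by 1.89 in ePRAoe (adjusted p = 0.0202), while the lactate dehydrogenase gene Ldhb fell by 1.09 in ePRBoe (adjusted p = 0.0279) and by 1.14 in ePRAoe (adjusted p = 0.00791). Among 12 iron genes, 1 was called higher and 2 lower in ePRBoe (25%), and 1 higher and 4 lower in ePRAoe (41.7%). The transferrin receptor Tfrc had 9.77, 7.91 and 5.14 FPKM in ePRBoe and 3.06, 5.43 and 7.68 in ePRAoe, against 12.6, 58.7 and 37.4 in Wnt7acre, and fell by 2.09 in ePRBoe (adjusted p = 0.0117) and 2.37 in ePRAoe (adjusted p = 0.00266). The ferritin chain Fth1 fell by 1.17 in ePRBoe (adjusted p = 0.0154) and 1.31 in ePRAoe (adjusted p = 0.00378), and the iron reductase Steap3 rose by 2.21 in ePRBoe (adjusted p = 0.00555) and 0.91 in ePRAoe (adjusted p = 0.0257). Of 8 creatine and arginine enzymes tested, 3 were called higher and 1 lower in ePRBoe (50%), and 1 higher and 2 lower in ePRAoe (37.5%). Arginase Arg1 was lower and the creatine synthesis enzyme Gamt higher in both. Of 10 amino acid response genes, 3 were called higher and 1 lower in ePRBoe (40%), and 2 higher and 1 lower in ePRAoe (30%). Sesn2 and Phgdh rose and Trib3 fell in both genotypes. Trib3 had 0.296, 0.297 and 0.259 FPKM in ePRBoe and was listed at 0.185, 0 and 0.185 in ePRAoe, against 3.78, 5.89 and 2.26 in Wnt7acre. It met the filter for testing through the controls alone, so it could be called only as a fall. In ePRAoe the calls of Ldhb, Tfrc, Fth1, Arg1 and Sesn2 remained with any 1 library left out, and that of Hk2 was lost without ePRAoe replicate 2 (adjusted p = 0.118). The ePRAoe calls of Phgdh, Steap3 and Gamt were also lost, at up to 0.142 and 0.115 without ePRAoe replicate 3 and 0.0764 without ePRAoe replicate 2. In ePRBoe the call of Steap3 remained, that of Trib3 was lost without ePRBoe replicate 2 (adjusted p = 0.0504) or ePRAoe replicate 2 (0.0553), and those of Ldhb, Tfrc, Fth1, Arg1, Gamt, Sesn2 and Phgdh were lost without Wnt7acre replicate 3 (adjusted p between 0.0936 and 0.216).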

How the data were processed

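RNA from laser-captured luminal epithelium was measured in 9 libraries, 3 per genotype, on 3 sequencing runs named in the sample descriptions. The authors deposited FPKM values per gene symbol. The submitters' processing notes name STAR 2.5.2b, featureCounts 1.5.0-p1, edgeR 3.28.0, limma 3.42.2 and the mm10 build; the annotation, strand setting and gene lengths are not given in the sources that were used. FPKM are not counts and read depth is not stated. Steps between low values gave a rough depth (1 FPKM of a gene of 2 kb corresponds to about 23.2 reads, from 346 genes), but only 41.6% of 860 low genes lay on 1 common step (tolerance 0.0006 FPKM), and no reads were recovered.

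The 12347 of 15158 genes that reached 1 FPKM in 3 or more libraries were fitted with limma 3.58.1 in R 4.3.3 on log2(FPKM + 1), with genotype and run as terms, a variance trend and all 9 libraries. The fit had 4 residual and 3.64 prior degrees of freedom. Tests were two-sided, p-values were adjusted by Benjamini-Hochberg over all tested genes, and "called" means an adjusted p under 0.05. Fold changes are on the log2(FPKM + 1) scale, which understates the change of low genes. Slc39a2 and Slc5a5 alone also had exact permutation tests. Wnt7acre is the control in 2 comparisons, which therefore share libraries.

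Genes were named by rule: Slc39a2 and Slc5a5; the 12 members with the highest mean; per comparison and direction the 10 called members that changed most, given 5 FPKM or more on average in whichever genotype was higher; and up to 3 called members per substrate group, or its highest member where none was called. Other members and the companion genes named were chosen after their values were seen. Some genes that the rule names are not reported here. The members and lists were chosen with earlier results of these data known. Replicate numbers did not pair libraries (correlations of same-numbered libraries between -0.23 and 0.17, with mixed signs). Correlations of same-run libraries lay between -0.257 and 0.315. They were taken on deviations from each genotype's mean, which cancel out within a genotype. All ePRBoe libraries share run 1, so same-run correlations with them must have mixed signs and cannot speak to the run. Between ePRAoe and Wnt7acre libraries of the same run they were 0.0325 in run 1, 0.182 in run 2 and 0.171 in run 3. Which term to prefer was not tested.

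As deposited, 4239 rows of the gene table (28.0%) stand out of alphabetical order. They hold 103 members, 49 of the 50 called in ePRAoe and 22 of the 26 called in ePRBoe, and of all genes called they hold 94.9% in ePRAoe and 72.6% in ePRBoe. A sort that moved symbols apart from their values could leave such an order, but how it arose was not tested. Among the members, rows such as Slc46a2, Slc43a2 and Slc24a4 come first, ahead of an alphabetical stretch that starts at Slc10a1. Where low values lay on 1 step across libraries (24.9% of 670 low genes out of order, 27.9% of 2965 in order), the implied gene length followed the annotated length in rows out of order (Spearman's rho 0.729 across 167 genes) and in order (0.652 across 827 genes). Symbols were therefore used as given. Only 3 members out of order entered that check (15 members in all, rho 0.618), so it bears on the called members through other genes alone. Positions and exon overlaps are from GENCODE M21 (mm10), and promoters from RefSeq (GRCm38.p6).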

Additional observations from a re-analysis of the deposited data

How the results depend on the processing

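Among the named genes, no change that passed the test in the reported fit or under the alternative changed sign. The ePRAoe count of 50 was 32 with the replicate number as a block in place of the run term and 29 with the block beside it, 39 with only genes of a mean of at least 5 FPKM, and between 19 and 67 with 1 library left out. The ePRBoe count of 26 was 15 with a mean of at least 5 FPKM, 46 without the run term, 42 with the replicate block in place of the run term, 7 with the block beside it, and between 5 and 40 with 1 library left out. The count between ePRBoe and ePRAoe was 1 without the variance trend and between 0 and 12 with 1 library left out. Pseudocount 0.1, no filter, median-of-ratios factors and TPM gave 49 to 51 calls in ePRAoe and 23 to 24 in ePRBoe. All of these counts are of members only and are not set beside all genes here. With 1 library left out, Slc39a2 changed by between 2.78 and 3.3 on the log2 scale in ePRBoe; it lost its call without ePRAoe replicate 2 (log2 3.02) and without Wnt7acre replicate 3 (3.10). Beyond the design, the cause of these moves was not tested. With the run term, ePRAoe and Wnt7acre libraries of the same run drop out of the ePRAoe comparison together. Correlations of same-numbered libraries had mixed signs, and those of same-run libraries must have mixed signs where ePRBoe is involved. The choice between the block and the run term was not tested. Whether the effects behind calls lost under the block are weaker was not tested. The median of all genes changed sign with quantile normalization, to -0.03 beside 0.10 in ePRBoe, 0.03 beside -0.03 in ePRAoe and -0.03 beside 0.15 in ePRBoe over ePRAoe, and in ePRAoe also with median-of-ratios factors and TPM (0.02 each). Of 3855 log2 changes of single genes under an alternative, 96 changed sign, and 0 of these passed the test in either fit. The log2 changes of ePRBoe over ePRAoe were Slc10a2 -0.16, Slc16a1 -0.24, Slc26a1 -0.25, Slc35g2 -0.39, Slc6a9 -0.24 and Slc8a1 -0.24 with quantile normalization, Slc2a3 -0.06 and Slc35g2 -0.03 with median-of-ratios factors, and Slc35g2 -0.08 and Slc8a1 -0.03 with the replicate block beside the run term. Without the run term, and alike with the replicate block in its place, the changes of ePRBoe over Wnt7acre were -0.06 for Slc2a12 and 0.12 for Slc38a2, and those of ePRBoe over ePRAoe were Slc23a1 0.24, Slc35g2 -0.24, Slc39a14 0.08, Slc46a1 0.06, Slc51a 0.57, Slc6a6 0.07 and Slc7a4 0.01. With 1 library left out, the log2 changes that turned in ePRBoe over Wnt7acre had ranges of Slc14a1 -2.22 to 0.51, Slc27a4 -0.51 to 0.01, Slc2a12 -0.29 to 0.29, Slc31a2 -0.01 to 0.80, Slc38a2 -0.92 to 0.07, Slc39a4 -0.62 to 0.18, Slc48a1 -0.70 to 0.18, Slc6a6 -0.37 to 0.04, Slc9a2 -0.52 to 0.28. In ePRAoe over Wnt7acre the ranges were Slc13a5 -0.62 to 1.75, Slc1a1 -0.31 to 0.03, Slc2a12 -0.30 to 0.12, Slc31a2 -0.07 to 0.37, Slc6a6 -0.55 to 0.14, Slc9a3r2 -0.55 to 0.14. In ePRBoe over ePRAoe they were Slc10a2 -0.23 to 0.35, Slc12a7 -0.20 to 0.19, Slc13a2 -0.10 to 0.70, Slc13a5 -0.80 to 1.86, Slc14a1 -1.09 to 1.64, Slc16a12 -0.45 to 0.53, Slc23a1 -0.40 to 0.13, Slc26a1 -0.40 to 0.56, Slc2a12 -0.19 to 0.38, Slc2a3 -0.32 to 0.46, Slc31a2 -0.39 to 0.43, Slc35g2 -0.15 to 0.16, Slc44a2 -0.12 to 0.55, Slc46a1 -0.30 to 0.21, Slc51a -0.75 to 0.22, Slc5a3 -0.31 to 0.19, Slc6a6 -0.24 to 0.17, Slc6a9 -0.13 to 0.52, Slc7a4 -0.82 to 0.14 and Slc8a1 -0.25 to 0.47. With 3 libraries a genotype and unstated depth, genes near 1 FPKM carry the least precise values.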
